A study of Arabidopsis thaliana with 4 samples.

Results

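Root hairs are tubular outgrowths of root epidermal cells that elongate only at the tip. The gene set described here holds 47 Arabidopsis thaliana genes that work in or mark this process: root hair specific genes, regulators, expansins, xyloglucan endotransglucosylase/hydrolases (XTHs), extensins and other wall proteins. Members were taken by locus, and a gene counted as measured where the array annotation paired a probe set with that locus alone. This held for 9 of the 47 (19.1%), against 44.5% of the 27444 protein-coding nuclear genes in the gene table used for names, and no measured member had more than 1 such probe set. The question was whether root hair transcripts are lowered together when Dof3.2, a Dof zinc finger transcription factor, is activated.

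All 4 one-colour Affymetrix arrays came from seedlings of 1 genotype, 35S::Dof3.2-GR, in which a constitutive viral promoter drives Dof3.2 joined to the hormone-binding part of the glucocorticoid receptor; such fusions stay out of the nucleus until a glucocorticoid is given. The 2 DEX arrays came from seedlings given 10 µM dexamethasone (DEX) for 3 h and the 2 mock arrays from mock-treated seedlings. All seedlings grew at 22 °C, first for 4 days on agar (1% sucrose, with kanamycin at 50 µg/ml) and next for 4 days in shaken liquid medium. Seedlings without the fusion were not analysed here, so every difference includes any effect of DEX itself, and the labels do not say whether replicates were separate cultures, so p-values rest on a spread between arrays that may be technical.

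Growth of a root hair starts with basic helix-loop-helix regulators, of which RHD6 acts in initiation and RSL4 in elongation. Local signalling at the tip then involves receptor-like kinases and the NADPH oxidase RHD2 (RBOHC). The wall must yield and be rebuilt at the same time: expansins loosen it, XTHs cut and rejoin xyloglucan, glucanases trim glucan chains, and extensins and proline-rich proteins form a protein network that peroxidases can crosslink. The 9 measured members all belong to this last, wall-building layer.

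No probe set was paired with 1 gene alone for the other 38 members, and none of them has a value here. The annotation used did not list 8794 probe sets of the table, so some of these genes may lie among the unnamed ones. They were all 3 regulators (RHD6, RSL4 and LRL3) and all 7 signalling genes (ROPGEF4, ROPGEF10, RHD2, PERK13, RHS16, MRH1 and the kinase gene AT1G16440). Among wall enzymes they were XTH12, XTH13, XTH14, the xyloglucan glycosyltransferase gene RHS8, the pectin methylesterase gene RHS12 and the pectate lyase gene RHS14. The COBRA-like gene SHV2 had no such probe set either. The peroxidase genes RHS18 and RHS19 and 6 proline-rich or arabinogalactan protein genes (PRP1, PRP3, RHS13, MOP10, AGP3 and FLA6) were also without one. So were 7 extensin-type genes (LRX1, LRX2, EXT6, EXT10, EXT12, EXT13 and AT4G08400) and 6 genes of other kinds (MRH6, G3Pp2, MES15, RHS17, AT1G12950 and AT1G30850). The comparison therefore says nothing of the regulators or of tip signalling.

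Signals were the authors' MAS5 values, an array brightness on a linear scale, and no detection call was used. A probe set was tested where its mean log2 signal reached the 40th percentile of all probe sets, a signal of about 111. Of the 9 measured members, 7 were bright enough: the expansin genes EXPA7 and EXPA18, the glucanase gene GH9C1, AT2G47540 and the extensin genes AT5G06630, AT3G28550 and AT4G08410. XTH26 and the extensin gene AT3G54580 were not. AT4G08410 lay closest to the limit on the inside, and its mean signal in DEX was below it, so it passed through its mock arrays. XTH26 lay nearest on the outside.

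None of the 7 tested members passed the threshold after DEX (limma, two-sided, Benjamini-Hochberg adjusted p over 13648 probe sets; adjusted p = 0.372 to 0.888). Among all tested probe sets 0.293% were called lower and 0.293% higher in DEX, 0.586% in all. At an unadjusted p under 0.05, EXPA18 and AT5G06630 were lower in DEX, 2 of 7 members against 4.45% of all tested probe sets. Of the 7, 6 had a negative log2 change, against 51.8% of all tested probe sets, and their median log2 change was -0.27, against -0.01 over all tested. The range of the 7 was -0.45 to 0.14. AT4G08410 was itself the median gene and was kept through its mock signals; without it 5 of 6 were negative, with a median of -0.27, a check chosen after seeing the data. The median of the 7 was -0.013 without mock replicate 2 and -0.13 without DEX replicate 1. Without the probe sets of AT5G06630 and AT4G08410, to which similar transcripts can add signal, 4 of 5 members were negative, with a median of -0.22. These counts cover a small remainder of the list, which was chosen with earlier results of these data known, and describe it only. With 2 arrays in each group, the smallest two-sided p of an exact permutation test is 0.333.

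**Figure D1:**
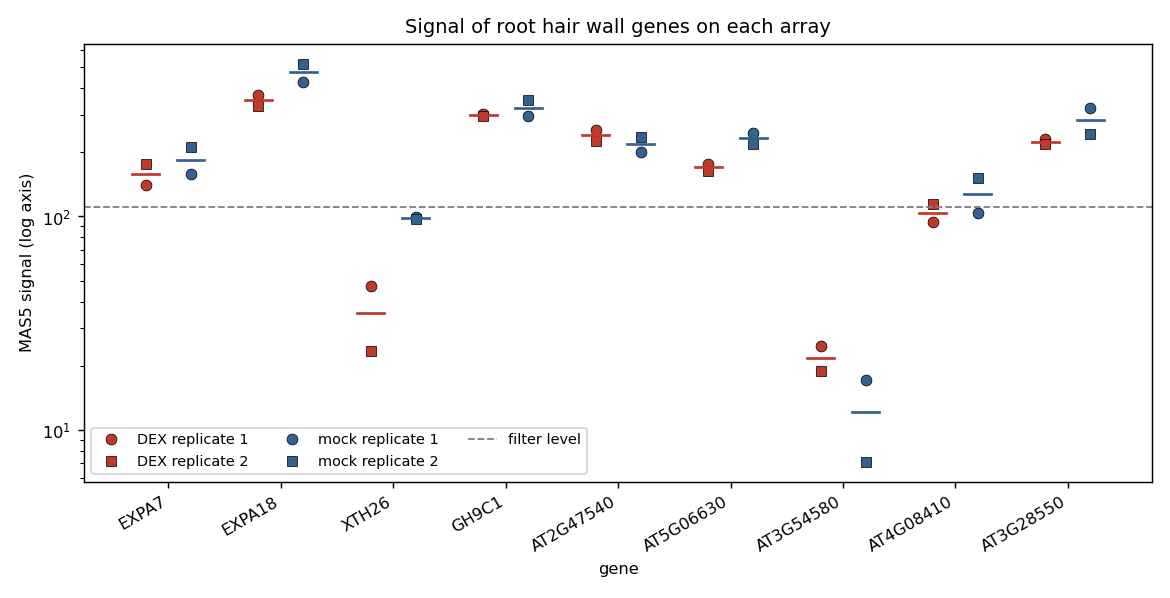
MAS5 signal (log axis) of the 9 measured root hair wall genes on each array, DEX left of mock, with circles for replicate 1, squares for replicate 2 and a bar at each group's mean; the dashed line is the filter level of about 111. EXPA18, AT5G06630, AT3G28550 and the dim XTH26 had both DEX arrays below both mock arrays, and the dim AT3G54580 had both above.

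Both expansins in the set, EXPA7 and EXPA18, are known from root hair cells. EXPA18 had signals of 368.4 and 329.9 on the DEX arrays, against 426.6 and 517.8 on the mock arrays. Both DEX values lay below both mock values, and the DEX to mock ratio was 0.637 to 0.864 over the 4 possible pairs. The fitted log2 change was -0.43 ± 0.15 (SE), a ratio of 0.742 with a 95% interval of 0.591 to 0.93 before any adjustment (adjusted p = 0.372, limma). EXPA18 passed in none of the alternative settings that kept all 4 arrays. In fits with 1 mock array, its log2 change was -0.57 without mock replicate 1 and -0.29 without mock replicate 2.

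EXPA7 had signals of 140.2 and 175.2 on the DEX arrays, against 158.1 and 211 on the mock arrays. Its groups overlapped, since DEX replicate 2 lay above mock replicate 1. The log2 change was -0.22 ± 0.20 (SE; adjusted p = 0.806, limma). Its interval, a DEX to mock ratio of 0.629 to 1.17, includes the fitted ratio of EXPA18. Without mock replicate 2 the change of EXPA7 was -0.013.

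Extensins are hydroxyproline-rich rods that are crosslinked into the wall, and 4 of the 11 extensin-type members were measured. AT5G06630 had signals of 176.2 and 163.5 on the DEX arrays, against 246.4 and 219.1 on the mock arrays. The groups did not overlap, and all 4 pair ratios of DEX to mock lay between 0.664 and 0.805. The log2 change was -0.45 ± 0.16 (SE), a ratio of 0.731 with an unadjusted 95% interval of 0.57 to 0.937 (adjusted p = 0.393, limma). The probe set is marked x_at, which means that similar transcripts can add to its signal, and the next protein-coding gene in the table is the extensin gene EXT10, so the value may belong to more than 1 extensin.

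AT3G28550, a proline-rich extensin-like gene, had signals of 230.2 and 217.3 on the DEX arrays, against 321.5 and 242.5 on the mock arrays. Here too both DEX values lay below both mock values, though the mock arrays stood farther apart than the group means did on the log2 scale. The log2 change was -0.32 ± 0.17 (SE; adjusted p = 0.625, limma). Without mock replicate 1 it was -0.12 and without mock replicate 2 it was -0.52.

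AT4G08410 had signals of 93.81 and 114 on the DEX arrays, against 103.7 and 151 on the mock arrays, so its groups overlapped. Its log2 change was -0.27 ± 0.23 (SE; adjusted p = 0.785, limma), and -0.004 without mock replicate 2. This probe set is also marked x_at. A second probe set, which the annotation pairs with both AT4G08410 and AT4G08400 and which the one-gene rule leaves out, had 14.53 and 10.83 on the DEX arrays, against 12.04 and 5.861 on the mock arrays, all far under the filter level.

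In 3 of the 7 tested members (EXPA18, AT5G06630 and AT3G28550) both DEX arrays lay below both mock arrays, against 21.1% of all tested probe sets. In 0 of 7 both DEX arrays lay above both mock arrays, against 18.2% of all tested. The remaining 4 overlapped. In 2 of the 7 (EXPA18 and AT5G06630) the change was larger than the difference within either group. This is close to the share over all tested probe sets, 27%, and does not set the members apart.

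The other tested wall genes had the changes nearest 0. GH9C1, an endo-1,4-beta-glucanase gene of glycosyl hydrolase family 9, had signals of 302.3 and 296.8 on the DEX arrays, against 296.2 and 349.7 on the mock arrays. Its groups overlapped, and the log2 change was -0.10 ± 0.15 (SE; adjusted p = 0.888, limma), a DEX to mock ratio of 0.931 with a 95% interval of 0.742 to 1.17. AT2G47540, which encodes a wall protein of the pollen Ole e 1 and extensin family, had 253.8 and 226.6 on the DEX arrays, against 200.9 and 236.7 on the mock arrays. It was the member with a positive change, 0.14 ± 0.16 on the log2 scale (SE; adjusted p = 0.863, limma), with an interval of the ratio from 0.857 to 1.41. Its change was 0.019 without mock replicate 1, 0.26 without mock replicate 2, 0.055 without DEX replicate 1 and 0.22 without DEX replicate 2. These intervals leave out a halving of either transcript, a ratio of 0.5, before adjustment.

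**Figure D2:**
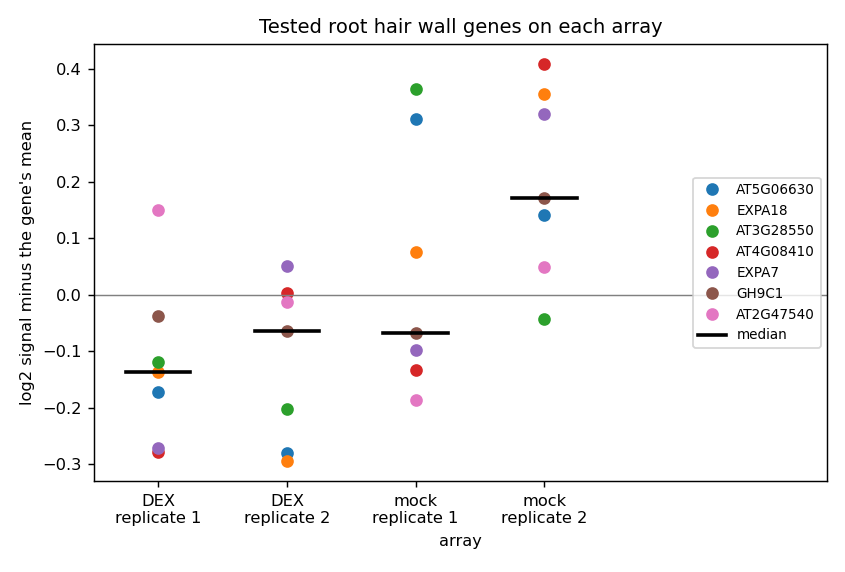
Log2 signal of each of the 7 tested root hair wall genes minus that gene's mean over the 4 arrays (vertical axis) for each array, with 1 colour per gene and a black bar at the median. The medians were -0.14 and -0.07 on the DEX arrays and -0.07 and 0.17 on the mock arrays, so mock replicate 2 stood highest while mock replicate 1 was level with DEX replicate 2.

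The median departure of the 7 members from their own means was -0.07 on mock replicate 1 and 0.17 on mock replicate 2. The direction was not shared by all, since AT5G06630 and AT3G28550 were lower on mock replicate 2. On DEX replicate 1 and 2, 6 and 5 of the 7 genes lay below their own mean, and on mock replicate 1 and 2, 4 and 1 did. Taken pair by pair, 7 of 7 were lower on DEX replicate 2 than on mock replicate 2, but 3 of 7 were lower on DEX replicate 2 than on mock replicate 1; over all tested probe sets the shares were 51.3% and 52%. The median log2 difference of the 7 was -0.27 in the first of these pairs and 0.003 in the second, while over all tested probe sets it was -0.01 in both. With DEX replicate 1 it was -0.31 against mock replicate 2 and -0.17 against mock replicate 1. In all 7 members the mock arrays differed by more than the DEX arrays did, as they did in 59.7% of all tested probe sets. Mock replicate 2 was above mock replicate 1 in 5 of the 7 members, against 49.8% of all tested probe sets. AT4G08410 is among the 7 throughout and passed the filter through its mock arrays, with its highest signal, 151, on mock replicate 2. Its place in these counts and medians is therefore partly set by the filter, and they were not made without it. What sets the mock arrays apart was not tested.

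XTH26, a xyloglucan-remodelling enzyme gene known from root hairs, showed the widest separation of the measured members but was dim. Its signals were 47.5 and 23.56 on the DEX arrays, against 99.94 and 97.54 on the mock arrays. The mock arrays were alike, the DEX arrays differed between themselves, and every mock value was 2.05 to 4.24 times every DEX value. In a fit of all 22746 probe sets its log2 change was -1.56 ± 0.40 (SE; adjusted p = 0.341, limma), and with a filter at the 20th percentile the adjusted p was 0.112. In that fit of all probe sets 0.11% were called. Both groups lie under the filter level, and the size is not well fixed: with 32 added to each signal the change was -0.98 (adjusted p = 0.401, limma).

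AT3G54580, an extensin gene, was dimmer still, with 24.72 and 18.86 on the DEX arrays, against 17.11 and 7.118 on the mock arrays. Both DEX values lay above both mock values, the opposite order to that of XTH26, at signals where the mock arrays alone differed 2.4-fold. The log2 change in the fit of all probe sets was 0.97 ± 0.66 (SE; adjusted p = 0.769, limma). Over all probe sets 21.6% had both DEX arrays below and 16.6% both above the mock arrays.

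**Figure D3:**
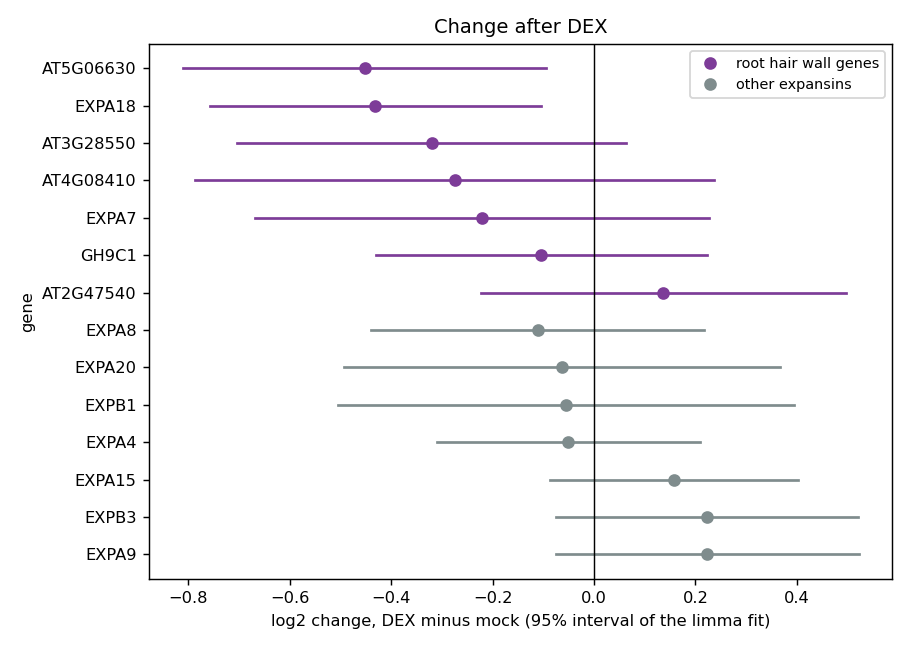
Log2 change (DEX minus mock, points) with the unadjusted 95% interval of the limma fit (lines) for the 7 tested root hair wall genes (purple) above the 7 tested expansins outside the set (grey). The intervals of AT5G06630 and EXPA18 lie below 0 and those of the other genes include it.

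Expansins outside the set did not pass either. Of 17 listed, 8 had a probe set of their own and 7 were tested, with 4 negative and 3 positive log2 changes, a median of -0.05 and a range of -0.11 to 0.22. EXPB3 had signals of 843.5 and 784.3 on the DEX arrays, against 774 and 626.9 on the mock arrays, and its change was 0.22 ± 0.13 (SE). EXPA9 had a change of 0.22 ± 0.13 and EXPA15 one of 0.16 ± 0.11 (SE). In these 3 of the 7 both DEX arrays lay above both mock arrays, against 18.2% of all tested probe sets. In 0 of the 7 both lay below, against 21.1% of all tested. EXPA8 had a change of -0.11 ± 0.15 (SE). The related expansin-like genes, grouped by symbol after the members' values were seen, had 3 tested members, and 0 passed. EXLB1 had 276.9 and 278.1 on the DEX arrays, against 419.1 and 346.8 on the mock arrays, a log2 change of -0.46 ± 0.15 (SE; adjusted p = 0.335, limma), which is as large as that of EXPA18. EXLA1 had a change of 0.34 ± 0.16 and EXLA2 one of 0.13 ± 0.21 (SE). The difference between EXPA18 and these expansins was not tested.

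Among XTHs outside the set, a family grouping by symbol made after the members' values were seen, 8 of 26 had a probe set of their own and 5 were tested. XTH18 fell, with signals of 305.9 and 275.1 on the DEX arrays, against 494.9 and 513.4 on the mock arrays (log2 change -0.80 ± 0.13 SE, adjusted p = 0.0361, limma). That call ended without DEX replicate 1, without DEX replicate 2 and without the filter on dim probe sets (adjusted p = 0.0845 without the filter, limma). The log2 change of XTH18 was -0.87 without DEX replicate 1 and -0.72 without DEX replicate 2. It was -0.82 without mock replicate 1 and -0.77 without mock replicate 2. The other 4 did not pass, and the median of the 5 was 0.02. Another 3 were dim like XTH26, and their order differed. XTH20 had 87.66 and 92.42 on the DEX arrays, against 151.3 and 120.9 on the mock arrays. XTH33 had 108.9 and 104.4 on the DEX arrays, against 95.29 and 92.01 on the mock arrays, and XTH29 had 12.43 and 15.19 on the DEX arrays, against 2.377 and 10.65 on the mock arrays. Of the other GH9 glucanases, grouped in the same way, 4 were tested and 0 passed, with a median of -0.12. All 4 had a negative log2 change, against 51.8% of all tested probe sets. In 2 of the 4 both DEX arrays lay below both mock arrays, against 21.1% of all tested. In 0 of the 4 both lay above, against 18.2%.

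The other root hair genes were covered even more thinly. Of 30 listed, 3 had a probe set of their own, 2 were tested and 0 passed. FER, the receptor kinase gene FERONIA, had signals of 1433 and 1390 on the DEX arrays, against 1618 and 1439 on the mock arrays, a log2 change of -0.11 ± 0.11 (SE; adjusted p = 0.825, limma). SCN1, which restricts hair initiation to 1 site, had 1088 and 1098 on the DEX arrays, against 1149 and 1010 on the mock arrays, a log2 change of 0.02 ± 0.11 (SE). RSL3 (AT2G14760) was the third, with signals from 1.39 to 3.74 on the 4 arrays. Of 12 genes of hair and non-hair fate, TRY was dim and GIS3 (AT1G68360) had a change of -0.20 ± 0.35 (SE), and the rest had no probe set of their own.

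**Figure D4:**
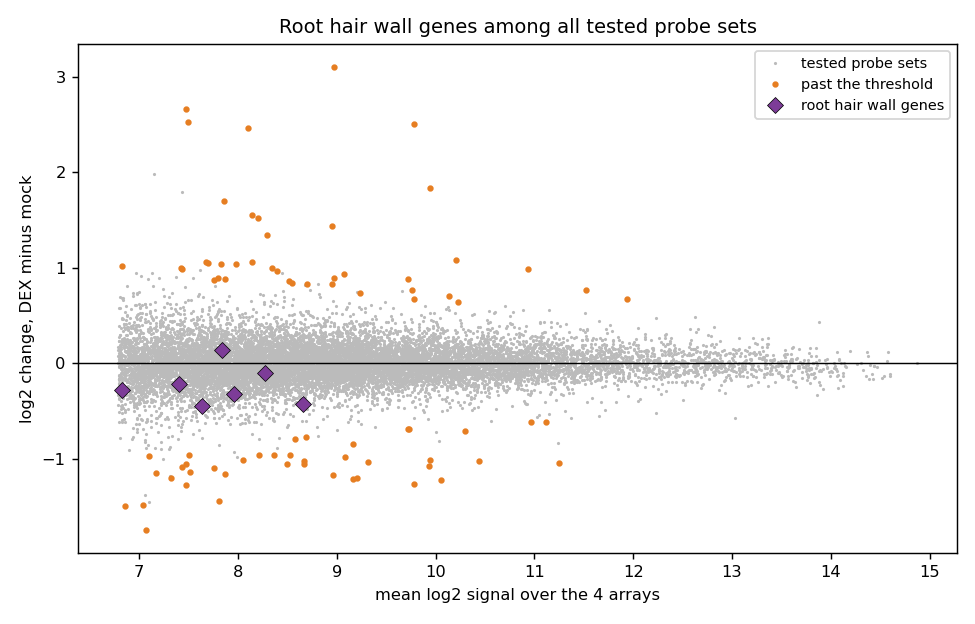
Log2 change (DEX minus mock, vertical axis) against mean log2 signal over the 4 arrays (horizontal axis) for the 13648 tested probe sets (grey), the 80 past the threshold (orange) and the 7 tested root hair wall genes (purple diamonds). The purple diamonds lie between -0.45 and 0.14, inside the grey cloud, and the smallest called change was 0.61 in size.

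A lower signal in whole seedlings can mean fewer root hair cells or less RNA per cell, and these cannot be told apart. Both organs were represented on the arrays. PYK10, an abundant root beta-glucosidase gene and the 1 of 8 general root markers with a probe set of its own, had 13648 and 14584 on the DEX arrays, against 13476 and 14012 on the mock arrays. The 3 of 8 cortex and endodermis markers that could be tested summed to 3684 and 3764 on the DEX arrays, against 3864 and 4038 on the mock arrays, with log2 changes of -0.15 to 0.21. The 4 of 12 tested green tissue markers summed to 52051 and 44809 on the DEX arrays, against 50193 and 52826 on the mock arrays, and ran from -0.23 for PORB to 0.09 for PRK. None of these markers passed, nor did any of the 5 tested reference genes (median -0.01). The 10 stele and 8 root cap and meristem markers had no probe set of their own. The part of these tissues in the members' values was not tested.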

How the data were processed

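The deposited values are MAS5 signal intensities, 1 per probe set, on a linear scale, per the submitters' processing notes; its version and settings are not given in the sources used here. Arrays were scaled one by one to a common level: after trimming 2% of values at each end, all 4 means were 500.0, which hides any change in total RNA. The table held 22810 probe sets, of which 64 controls were left out. Signals were log2-transformed as they stood, and the 13648 probe sets at or above the 40th percentile of mean log2 signal were tested. Of 14016 probe sets in the array annotation, 13513 had 1 gene, 503 had several, and 13436 matched a locus in the RefSeq gene table (TAIR10.1), used for names only. The array's genome build is not given in the sources used here, so no coordinates are printed. Another 8794 probe sets of the table were not listed in the array annotation and are unnamed here. A gene without a probe set of its own here may have one among them.

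The comparison of DEX with mock used limma 3.58.1 in R 4.3.3, with a group term and variances that follow the mean, with Benjamini-Hochberg adjustment at 0.05. Each test had 9.74 degrees of freedom, of which 2 came from the arrays. The fit was also run on simulated data with variances drawn from the fit itself, which says nothing of the members' changes. Log2 changes had a median SE of 0.14; the number of arrays limits the precision. Signals of different probe sets were not ranked against each other.

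The members and gene lists were chosen with earlier results of these data known. Per-array values are given for members past the threshold, members with an unadjusted p under 0.05 and the 2 brightest tested members of each role, which covers all tested members; the dim members were added. Other lists give up to 4 members with the lowest p. Alternatives were quantile normalization, median centring, no filter, filters at the 20th and 60th percentile, variances with no trend or a robust prior, 32 added as a pseudocount, the replicate block, probe sets without s_at or x_at names, the mean over a locus's probe sets, and each array left out.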

Additional observations from a re-analysis of the deposited data

Results flagged for a closer look

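AT3G54580, an extensin gene, gave a signal in a probe set that was left out of the comparison as dim, with both DEX arrays above both mock arrays. Its mean signal was 21.79 ± 4.14 in DEX and 12.12 ± 7.07 in mock seedlings (SD, n = 2 each), far under the filter level of about 111.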

How the results depend on the processing

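The median log2 change of the tested members ranged from -0.37 to -0.013 with each array left out in turn; the value near 0 came without mock replicate 2, and without DEX replicate 1 it was -0.13. Over these fits the count of members with a negative change ran from 5 to 6. Without mock replicate 1, EXPA18 passed, but that fit rests on 1 mock array and is not read as a call. GH9C1 turned to 0.016 without mock replicate 2. A filter at the 60th percentile left 2 members, both negative. In the other settings run, 0 members passed, and the median lay between -0.30 and -0.22. Over all probe sets, against 80 calls, there were 25 without the filter, 43 with the filter at the 60th percentile, 27 when DEX replicate 1 was left out and 25 when DEX replicate 2 was, and 496 when mock replicate 1 was left out and 260 when mock replicate 2 was. The replicate numbers rest on labels alone, and arrays of the same number deviated together at r = 0.109 across probe sets; in the fit with the replicate block, 185 probe sets and 0 members passed. Taking the mean over a locus's probe sets changed nothing, since no member had more than 1. Counting the extensin probe set shared by AT4G08410 and AT4G08400, an alternative chosen after seeing the data, added no tested member, as it lay under the filter; leaving AT4G08410 out, chosen likewise, gave a median of -0.27 over 6 members. Dim signals limit XTH26 and AT3G54580.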
